A study of Homo sapiens with 6 samples.

Results

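The miR-26 guide strands hsa-miR-26a-5p and hsa-miR-26b-5p were taken by name from a table of 832 miRNAs, and both were present. They were measured in small RNA libraries of extracellular vesicles (EVs, membrane particles that cells release) from MDA-MB-231, a human triple-negative breast cancer line described in the labels as epithelial. Libraries came from WT cells (231 EV, n = 3) and from cells of the same line with ACO1 knockdown (231 ACO1KD EV, n = 3). ACO1 is aconitase 1, an iron-responsive protein that can bind RNA, and the comparison asks how the miRNA content of EVs differs when it is reduced. In both groups the cells were kept in DMEM with serum, and EVs were pelleted by ultracentrifugation from medium described as EV-free. The construct behind the knockdown and the number of clones are not given in the sources used here, nor does any label say that replicates were separate cultures, so p-values measure only the spread between these libraries.

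A miRNA is cut from a hairpin precursor, and 1 of the arms, the guide strand, is usually loaded into an Argonaute protein. Bases 2 to 8 of the guide, the seed, pair with target mRNAs and lower their translation and stability, so miRNAs with the same seed share most targets. The miR-26 hairpins lie in introns of genes for the CTDSP small phosphatases. miR-26 is known as a growth-restraining family that targets EZH2 and that MYC represses.

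The mature forms are shown because the seed defines the family and the few other differences decide whether reads can be assigned. RefSeq (GRCh38.p14) gives these sequences, 5′ to 3′, with the seed in capitals.
hsa-miR-26a-5p: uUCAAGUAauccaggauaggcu
hsa-miR-26b-5p: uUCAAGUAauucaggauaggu
The guides are 22 and 21 nt long and share their first 10 bases. Counted from 1 at the 5′ end, with the base of hsa-miR-26a-5p first, they differ by C11U and C21U, and hsa-miR-26a-5p has 1 more base at its 3′ end. How the authors' matching treated reads with a mismatch or a trimmed end is not given in the sources used here, so some reads may have been assigned to the wrong paralog. The human miRNAs hsa-miR-1297 and hsa-miR-4465 carry the same seed and were not analysed here.

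hsa-miR-26a-5p can come from either of 2 hairpins, which its reads cannot tell apart, whereas the opposite (3p) arms differ. The hairpins are shown with their mature arms in capitals.
MIR26A1: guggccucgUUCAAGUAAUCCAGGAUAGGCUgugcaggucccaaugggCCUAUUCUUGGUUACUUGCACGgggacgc
MIR26A2: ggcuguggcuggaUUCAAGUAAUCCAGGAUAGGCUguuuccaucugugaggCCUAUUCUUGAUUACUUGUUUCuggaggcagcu
MIR26B: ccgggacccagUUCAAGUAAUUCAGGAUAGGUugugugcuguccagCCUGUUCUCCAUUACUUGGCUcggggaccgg
MIR26A1 lies on chromosome 3 from 37969404 to 37969480 on the plus strand, in intron 5 of the principal CTDSPL transcript. MIR26A2 lies on chromosome 12 from 57824609 to 57824692 on the minus strand, in intron 5 of CTDSP2. MIR26B lies on chromosome 2 from 218402646 to 218402722 on the plus strand, in intron 4 of CTDSP1. GENCODE 29 and RefSeq gave the same positions, and each hairpin is on the strand of its host and overlaps no exon of the principal transcript. The 3p arms of MIR26A1 and MIR26A2, both 22 nt, differ at 5 positions.

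Short sequences searched on the mature strand were CAUUG, the first 5 letters of the CAUUGC that the study tested for ACO1 binding, and GGAG and GGCU, both described for sorting of miRNAs into vesicles. Neither guide nor any of the 3 opposite arms holds CAUUG, which 1.73% of 2370 human mature miRNAs in RefSeq and 4.14% of 435 tested miRNAs with a RefSeq sequence hold. GGAG was likewise in none of these 5 arms, against 15.7% of the 2370 and 7.36% of the 435. GGCU forms the 3′ end of hsa-miR-26a-5p from position 19 and is in hsa-miR-26b-3p, but is not in hsa-miR-26b-5p, and 12.6% of the 2370 and 11.5% of the 435 hold it. These are letter matches only.

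Libraries held 224948 to 230562 counts in 231 EV and 175924, 67873 and 157322 in 231 ACO1KD EV replicates 1, 2 and 3, so that replicate 2 carries the most counting error. 231 ACO1KD EV replicate 3 stood apart from its group: in chi-square comparisons of counts it differed from replicates 1 and 2 by 22.6 and 17.3 per degree of freedom, against 7.21 between those and 3.64 to 4.41 within 231 EV. hsa-miR-21-5p, the most abundant miRNA, took 28.5% to 31.2% of 231 EV counts, 12.2% and 11.7% in 231 ACO1KD EV replicates 1 and 2 and 18.4% in replicate 3. hsa-miR-221-3p, typical of this line, was at 9726 to 19315 TPM, and of the epithelial miRNAs of the miR-200 family, hsa-miR-200c-3p was at 17.3 to 68.2 TPM and hsa-miR-141-3p at 115.6 to 216.9 TPM. All of 9 miRNAs known from red cells, leukocytes, endothelium or liver were above 0 in every library, and their summed level ran from 18733 to 20871 TPM in controls and from 27955 to 32870 TPM after knockdown. The members did not move together: hsa-miR-451a, a red cell miRNA, had a log2 fold change of -0.94 (adjusted p = 0.000136) and hsa-miR-126-3p of 0.52 (adjusted p = 0.00509). Their part in the results below was not tested.

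Both guides were abundant in these libraries. Deposited TPM values are counts over the library total, scaled to the same sum in every library with no length term. Each is a share of the miRNA reads, so it gives neither the number of vesicles nor the amount of miRNA per vesicle. In replicates 1, 2 and 3, hsa-miR-26a-5p had 2201, 2402 and 2303 counts in 231 EV, or 9784, 10418 and 10235 TPM. In 231 ACO1KD EV it had 1562, 582 and 1952 counts, or 8879, 8575 and 12408 TPM. Replicates 1 and 2 of the knockdown thus lay below every 231 EV library and replicate 3 above every one, so the groups overlapped. The 95% Wilson interval of knockdown replicate 3, 11872 to 12967 TPM, did not meet that of any other library, and intervals here cover counting error only, since reads without molecular identifiers are not independent molecules. The mean was 10146 ± 326 TPM (SD, n = 3) in controls and 9954 ± 2131 TPM (SD, n = 3) after knockdown, a difference well within the knockdown spread (two-sided exact permutation test, p = 0.9).

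hsa-miR-26b-5p had 1585, 1411 and 1453 counts in 231 EV, or 7046, 6120 and 6458 TPM. In 231 ACO1KD EV it had 1471, 552 and 1191 counts, or 8362, 8133 and 7570 TPM. On this scale every knockdown library lay above every 231 EV library, and knockdown replicate 3, the highest for the paralog, was the lowest of its group. The mean was 6541 ± 469 TPM (SD, n = 3) in controls and 8022 ± 407 TPM (SD, n = 3) after knockdown, or 1.23 times as high (two-sided exact permutation test, p = 0.1, the smallest that 3 libraries against 3 can give). Of all 517 miRNAs tested, 22.6% had groups that did not overlap with the knockdown higher on the TPM scale.

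By mean TPM over the 6 libraries, hsa-miR-26a-5p was number 18 and hsa-miR-26b-5p number 21 of the 832 miRNAs. The rank of hsa-miR-26a-5p was 17 in each 231 EV library and 20, 21 and 17 in 231 ACO1KD EV, and that of hsa-miR-26b-5p was 20, 23 and 20 against 21, 22 and 23. The neighbours of hsa-miR-26a-5p in this order were hsa-miR-126-3p, an endothelial miRNA, and hsa-miR-27a-3p, and hsa-miR-26a-5p was the higher of each pair in 4 of 6 libraries. hsa-miR-26b-5p lay between hsa-miR-92a-3p, of the miR-17-92 cluster, and hsa-miR-125a-5p, and was higher in 3 and 4 of 6 libraries. In each of these 4 pairs the order thus changed between libraries.

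**Figure D1:**
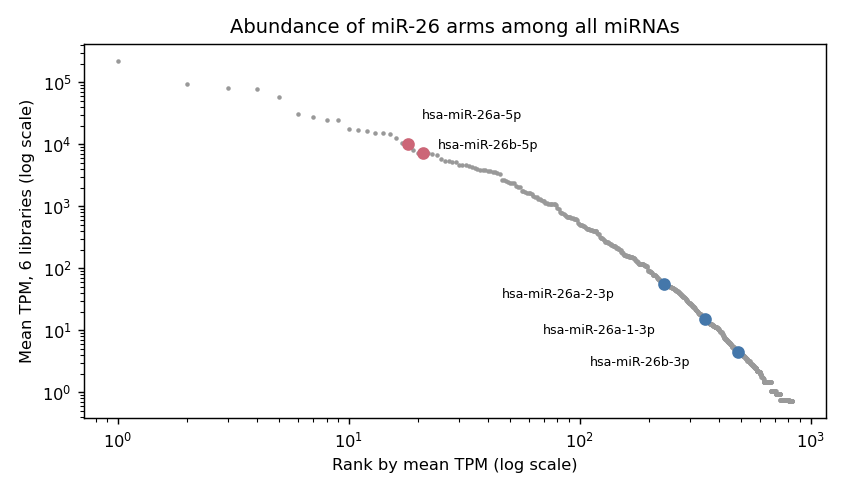
Mean TPM over 6 libraries against rank, both on log scales, for all miRNAs (grey), with the guides in red and the 3p arms in blue. The guides sit at ranks 18 and 21, and the 3p arms at 232, 348 and 483.

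The paralog ratio needs no scaling between libraries. There were 1.39, 1.70 and 1.58 counts of hsa-miR-26a-5p for each count of hsa-miR-26b-5p in 231 EV replicates 1, 2 and 3, and 1.06, 1.05 and 1.64 in 231 ACO1KD EV. The paralogs were therefore near equal in knockdown replicates 1 and 2, where the share of hsa-miR-26a-5p was 51.5% (95% Wilson interval 49.7% to 53.3%) and 51.3% (48.4% to 54.2%). Knockdown replicate 3, at 62.1% (60.4% to 63.8%), lay inside the range of 231 EV, 58.1% to 63.0%. On the log2 scale the ratio averaged 0.64 ± 0.15 (SD, n = 3) in controls and 0.29 ± 0.36 (SD, n = 3) after knockdown. The difference of -0.34 was within this spread (two-sided exact permutation test, p = 0.3). Without knockdown replicate 3 the difference was -0.55 and the groups did not overlap (exact permutation p = 0.2, the smallest that 3 libraries against 2 can give). How many other paralog pairs separate without that library was not computed.

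For other paralog pairs with at least 10 counts of each member in every library, 14 of 20 listed, the change in log2 ratio ran from -1.996 (miR-146a against miR-146b) to 0.40, with a median of -0.02. In 3 of the 14 the change was larger in size than that of miR-26, and in 4 the knockdown libraries spread more. The groups did not overlap in 5 of the 14 (35.7%), whereas for miR-26 they did.

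The summed guides took 1.68%, 1.65% and 1.67% of the reads in 231 EV replicates 1, 2 and 3 and 1.72%, 1.67% and 1.998% in those of 231 ACO1KD EV. The mean was 1.67% ± 0.0146 (SD, n = 3) for controls and 1.80% ± 0.175 (SD, n = 3) after knockdown (two-sided exact permutation test, p = 0.2). As a share of library totals, the summed family varied little between 231 EV libraries while the paralogs within it varied more. The Wilson intervals of these sums, at the level used above, were 1.63% to 1.74%, 1.60% to 1.71% and 1.62% to 1.72%. Each held the shares of the other 231 EV libraries, so the small spread lies within counting error and shows no property of the family. Its size on other denominators was not compared. The knockdown mean of the summed family is raised by replicate 3 (difference 0.0287 percentage points without it). The sign depended on the denominator: as a share of counts other than hsa-miR-21-5p the family was 2.35%, 2.40% and 2.39% against 1.96%, 1.89% and 2.45%, a difference of -0.28 percentage points (exact permutation p = 0.4). As a share of the TMM effective library size it was lower in every knockdown library than in every control, a mean difference of -0.30 percentage points (exact permutation p = 0.1, the smallest possible). The share of all tested miRNAs separated in this way on that scale was not computed.

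To compare the groups across all miRNAs, counts were scaled by edgeR's TMM method, which sets libraries to the same level for the bulk of miRNAs, and compared by its quasi-likelihood test. An adjusted p under 0.05 was reached by 8.51% of the 517 miRNAs, with 6.0% lower after knockdown and 2.51% higher. Neither miR-26 guide passed. After TMM scaling hsa-miR-26a-5p was at 10701, 11612 and 12190 CPM (counts scaled to the TMM effective library size) in 231 EV and at 8016, 7164 and 11371 CPM in 231 ACO1KD EV. Knockdown replicates 1 and 2 were again below every control, and replicate 3 fell among the controls. This gave a log2 fold change of -0.38 with a standard error of 0.14, or 1.30-fold lower, and an adjusted p of 0.066. Without 231 ACO1KD EV replicate 3 it was -0.59 (standard error 0.11, adjusted p = 2.58e-06), a fit in which 8.51% of the tested miRNAs were called lower. That library was singled out from these same counts. In the fits without any other library, hsa-miR-26a-5p did not pass, with an adjusted p from 0.128 to 0.420.

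hsa-miR-26b-5p was at 7706, 6821 and 7691 CPM in 231 EV and 7549, 6795 and 6938 CPM in 231 ACO1KD EV, so the groups overlapped. The fitted log2 fold change, -0.06, was smaller than its standard error of 0.15, and the adjusted p was 0.894. With library totals in place of TMM it was 0.29 (standard error 0.14, adjusted p = 0.178), and that of hsa-miR-26a-5p was -0.03 (adjusted p = 0.939). The direction for hsa-miR-26b-5p thus depended on scaling. The median over all tested miRNAs moved alike, from -0.03 with TMM to 0.32 with library totals, where 2.51% were called lower and 11.2% higher. Relative to that median, hsa-miR-26a-5p was below and hsa-miR-26b-5p close to it under both scalings.

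**Figure D2:**
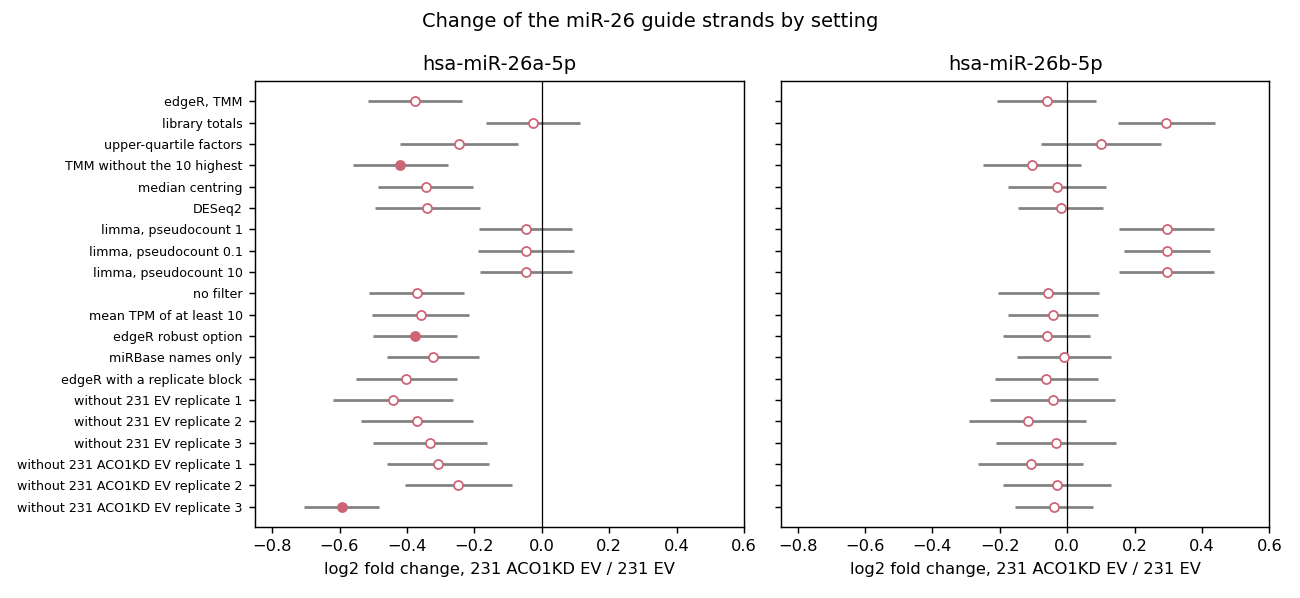
Log2 fold change of 231 ACO1KD EV against 231 EV (horizontal axis, bars 1 standard error) of hsa-miR-26a-5p (left) and hsa-miR-26b-5p (right) in each analysis setting, filled where the adjusted p was under 0.05. hsa-miR-26a-5p is below 0 in every fit drawn and filled in 3, and hsa-miR-26b-5p is above 0 in 5.

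The 3p arms were rare. hsa-miR-26a-2-3p had 9, 13 and 4 counts in 231 EV and 8, 9 and 7 in 231 ACO1KD EV, and hsa-miR-26a-1-3p had 2, 5 and 1 against 5, 1 and 2. hsa-miR-26b-3p had 1, 1 and 0 against 1, 0 and 2, and a count of 0, taken to allow up to 3 counts, allows up to 13.3 TPM in 231 EV replicate 3 and 44.2 TPM in 231 ACO1KD EV replicate 2. The 3p reads were 0.596% of miR-26a counts (95% exact binomial interval 0.461% to 0.758%) and 0.0652% of miR-26b counts (0.0212% to 0.152%) over all libraries. The miR-26a hairpins thus left proportionally more 3p reads than MIR26B in these counts. Between the groups the miR-26a value was 0.490% (0.340% to 0.684%) in 231 EV and 0.775% (0.531% to 1.09%) in 231 ACO1KD EV, over counts summed within each group. These intervals overlap, and the difference was not tested.

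Only the 3p arms separate the miR-26a hairpins. Of 66 reads on them, 50 were from MIR26A2, in CTDSP2, or 75.8% (95% exact binomial interval 63.6% to 85.5%), and this arm had more counts in 6 of 6 libraries. How much each hairpin contributes to the guide cannot be read from this. None of the 3p arms passed the test, with log2 fold changes of 0.39 (standard error 0.57, adjusted p = 0.799) for hsa-miR-26a-2-3p, 0.39 (standard error 0.95, adjusted p = 0.901) for hsa-miR-26a-1-3p and 0.86 (standard error 1.37, adjusted p = 0.799) for hsa-miR-26b-3p. At 0 to 13 counts per library these have little weight.

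On the TPM scale the paralogs did not vary together. Pearson's r of log2(TPM + 1) between them was -0.42 over the 6 libraries. It ran from -0.97 without 231 ACO1KD EV replicate 3 to -0.22 without replicate 2 of that group. Each TPM value shares its library's total with the other. After TMM scaling both guides were lowest in 231 ACO1KD EV replicate 2 (7164 and 6795 CPM). On that scale r was not computed, so its sign holds for TPM only. Among 195 other miRNAs with a mean of at least 100 TPM, those most like hsa-miR-26a-5p were hsa-miR-92a-3p (r = 0.92), hsa-miR-455-5p (r = 0.90) and hsa-miR-92b-3p (r = 0.90). All 3 were highest in 231 ACO1KD EV replicate 3. hsa-miR-92a-3p ranged from 5923 to 10882 TPM, hsa-miR-455-5p from 119.4 to 222.5 TPM and hsa-miR-92b-3p from 256 to 604 TPM. Those most like hsa-miR-26b-5p were hsa-miR-127-3p (r = 0.98), hsa-miR-25-3p (r = 0.98) and hsa-miR-342-3p (r = 0.98). As their choice on the TPM scale implies, these had higher mean TPM in the knockdown, at 450, 18562 and 1701 TPM against 256, 14261 and 1107 TPM. By edgeR with TMM none of them passed, and the log2 fold change of hsa-miR-25-3p was 0.02 (adjusted p = 0.944). The r values describe 6 libraries and were not tested.

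Other guide strands processed from introns of protein-coding genes were taken as a list of 32, all tested, and 4 were lower and 2 higher (18.8%, against 8.51% of all tested). The 8.51% covers miRNAs of all abundances, many with few counts, so the shares are not matched for abundance. The lower ones were hsa-miR-33a-5p (log2 fold change -1.10), from the sterol regulator gene SREBF2, hsa-miR-378a-3p (-1.09), from PPARGC1B, and hsa-miR-107 (-0.75) and hsa-miR-103a-3p (-0.45), from pantothenate kinase genes. The higher ones were hsa-miR-126-3p (0.52), from EGFL7, and hsa-miR-128-3p (0.52). The median over the list was -0.05, against -0.03 over all tested. The split turned with the scaling: with library totals all 8 that passed were higher, where 2.51% of all tested were called lower and 11.2% higher. hsa-miR-126-3p is also among the 9 miRNAs of other cell types, whose summed level was higher in the knockdown. Leaving out 1 library gave between 1 call (without 231 EV replicate 1) and 9 calls (without 231 ACO1KD EV replicate 3), with 2 or 3 without any other library. Without 231 ACO1KD EV replicate 3, 8.51% of all tested were called lower. Other shares for the fits without 1 library were not computed.

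Of 18 miRNAs known to be repressed by MYC, the miR-26 guides included, all were tested, and 2 were lower and 1 higher (16.7%, against 8.51% of all tested). Here too the shares are not matched for abundance. hsa-miR-146a-5p, which restrains NF-kappaB signalling, had a log2 fold change of -2.72, hsa-miR-22-3p of -0.59, and hsa-miR-150-5p, a lymphocyte miRNA and 1 of the 9 of other cell types, of 0.72. The median over the list was -0.07, against -0.03 over all tested. With library totals, 1 was lower and 6 were higher, in the fit that called 2.51% of all tested lower and 11.2% higher. Without 231 ACO1KD EV replicate 3, 4 were lower and 2 higher, in the fit that called 8.51% of all tested lower. Without any 1 of the 231 EV libraries only 1, lower, was called, and the share of all tested there was not computed.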

How the data were processed

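The authors trimmed reads, kept sizes of miRNAs, removed other RNA classes with Rfam and matched the rest to miRBase. Bowtie2, StringTie and hg38 are named per the labels, and the study's methods also name HISAT, so which alignment led to the counts is not settled by the sources used here. They deposited raw counts per miRNA and TPM for each of the 6 libraries, and count over library total gave the deposited TPM to within 4.99e-05. All columns were used. Counts were compared with edgeR 4.0.16 (R 4.3.3): TMM, miRNAs above 0 in at least 3 libraries (517 of 832), quasi-likelihood test without covariates, and Benjamini-Hochberg adjustment over all tested. The common dispersion was 0.0433 and the prior degree of freedom infinite, so that no miRNA keeps a quasi-dispersion of its own. Standard errors come from the fold change and F statistic. Single values were compared by exact permutation. Alternatives used library totals, upper-quartile factors, median centring, TMM effective sizes without the 10 highest miRNAs, DESeq2 1.42.0, limma 3.58.1 on log2(TPM + 1), other filters, edgeR's robust option, a replicate block and each library left out.

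Members and lists were chosen with earlier results of these data known. Named are the guides, their other arms, their neighbours in rank, the 3 most similar miRNAs of each, and up to 4 list members per direction past an adjusted p of 0.05. The list of 9 miRNAs of other cell types, hsa-miR-200c-3p, hsa-miR-141-3p, hsa-miR-221-3p and hsa-miR-21-5p were added after seeing the data.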

Additional observations from a re-analysis of the deposited data

How the results depend on the processing

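hsa-miR-26a-5p was below 0 under each of 19 alternatives, with an adjusted p below 0.05 under 3: with TMM sizes without the 10 highest miRNAs (-0.42, adjusted p = 0.0364), with edgeR's robust option (-0.38, adjusted p = 0.0305) and without 231 ACO1KD EV replicate 3. Its adjusted p ran up to 0.939, and its log2 fold change from -0.59 to -0.25 across the fits without 1 library. hsa-miR-26b-5p passed in none of 19, and was above 0 with library totals (0.29), upper-quartile factors (0.10) and limma with pseudocounts of 1, 0.1 and 10 (0.30, 0.30 and 0.30). Without 1 library it was from -0.12 to -0.03. The cause was not tested, except that TMM and library totals differ by construction.

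The paralog ratio stayed lower in the knockdown in all 9 alternatives, from -0.55 to -0.24 without 1 library. The summed level changed sign without hsa-miR-21-5p in the denominator (-0.28) and with TMM effective sizes (-0.30, exact permutation p = 0.1), and was 0.0287 to 0.19 percentage points without 1 library. Without 1 library the log2 fold change was -0.15 to 1.13 for hsa-miR-26a-1-3p and -0.070 to 0.79 for hsa-miR-26a-2-3p. hsa-miR-26b-3p has no value where a mean TPM of 10 was required.

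Calls among intronic miRNAs went from 1 to 9 without 1 library. Calls among MYC-repressed miRNAs were 7 with library totals and 5, 5 and 5 with limma at the 3 pseudocounts, and went from 1 to 6 without 1 library. The share of all tested called by limma was not computed, so those list counts stand without a comparison.

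Between libraries of the same replicate number, deviations from group means correlated at 0.11, 0.12 and 0.000455. These cover all tested miRNAs, many with few counts, so they cannot show whether the libraries were paired. With a replicate block the guides were at -0.40 and -0.06 (adjusted p = 0.07 and 0.943) and the paralog ratio at -0.34 (exact sign-flip p = 0.5). The lists were at 6 and 3 calls, with no call changed. The share of all tested called in the fit with that block was not computed, so these list counts too stand without a comparison.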
